A study of Rattus norvegicus with 8 samples.

Results

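Activated microglia and phagocyte genes were examined in the rat hypothalamus a day after an injection of retinoic acid (RA). The group consisted of 10 genes given by name, *Spp1*, *Cd68*, *Itgam*, *Aif1*, *Itgax*, *Itgb2*, *Gpnmb*, *Clec7a*, *Axl* and *Cd63*, of which 9 had a matched probe among 15159 named genes. No probe was matched to *Itgax*, which encodes the integrin chain CD11c. Each gene was followed on the probe with the highest mean intensity, on all 8 arrays and in both dye orders.

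All animals were male F344 rats kept in short days (SD), which received all-*trans* RA (4 rats) or vehicle (4 rats) through a cannula into the third ventricle. The labels give the RA dose as 1e-05 M and the vehicle as saline, whereas the study's methods give a higher concentration and DMSO in saline for both groups. RNA of tissue blocks that included the arcuate nuclei was compared on 8 two-colour Agilent arrays, each with RA in one dye and vehicle in the other. RA was in Cy5 on arrays 1, 3, 6 and 8 and in Cy3 on arrays 2, 4, 5 and 7, so that each RNA was measured in both dyes, but the sources used here do not say which arrays share RNA. On the slide, row 1 held arrays 1 to 4 and row 2 held arrays 5 to 8.

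Microglia are the resident macrophages of the brain, and with perivascular and meningeal macrophages they clear debris and dying cells. When they are activated they take up more material, enlarge their lysosomes and express integrins, pattern receptors and secreted factors that resting microglia express weakly. Blood monocytes that enter the tissue use many of the same genes. The measured RNA came from whole tissue blocks, so more cells of a type and more RNA per cell cannot be told apart.

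Upstream sequence is shown for *Cd68* and *Gpnmb*, a pair of lysosomal genes with high log2 ratios on the same arrays, because these were the members whose 250 bases before the annotated start lay wholly outside the gene. Of the 10 members, 8 were found in the RefSeq promoter table of the GRCr8 assembly (*Aif1* and *Itgb2* were not). Capitals mark matches on either strand to an AP-1 site (TGAGTCA), the core of PU.1 sites (GAGGAA), a myeloid transcription factor, and the core of the M-box bound by MITF (CATGTG), a factor for lysosomal genes. The *Cd68* window is chr10:54882442-54882691 on the minus strand, and the *Gpnmb* window is chr4:79340878-79341127 on the plus strand.
Cd68: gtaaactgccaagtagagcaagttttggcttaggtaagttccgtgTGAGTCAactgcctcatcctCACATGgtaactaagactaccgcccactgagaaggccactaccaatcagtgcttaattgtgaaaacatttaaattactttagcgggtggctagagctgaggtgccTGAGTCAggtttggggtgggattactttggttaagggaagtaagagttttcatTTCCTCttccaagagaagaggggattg
Gpnmb: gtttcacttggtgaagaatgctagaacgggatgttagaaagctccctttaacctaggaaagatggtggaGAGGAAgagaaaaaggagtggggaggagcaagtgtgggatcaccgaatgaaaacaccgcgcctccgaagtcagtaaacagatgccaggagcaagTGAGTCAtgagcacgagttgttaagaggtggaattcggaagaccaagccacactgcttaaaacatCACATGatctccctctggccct

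Both windows held all 3 motifs. The AP-1 letters were found in 4 of the 8 member windows (*Cd63*, *Cd68*, *Gpnmb* and *Itgax*) and in 4.05% of 33469 annotated promoters. The PU.1 core was found in 5 of 8 against 23.3%, and the M-box core in 3 of 8 (*Cd63*, *Cd68* and *Gpnmb*) against 12.1%. The core repeat unit of retinoid receptor sites (AGGTCA) was found in 1 of 8 windows (*Itgax*) against 14.1%, and direct repeats of it spaced by 1, 2 or 5 bases were found in 0 of 8, and in 0.0508%, 0% and 0.00896% of all promoters, so that no match is what nearly any 8 windows would give. Other motifs searched were an interferon-gamma activated site (TTCNNNGAA), an E-box of the MITF family (CACGTG) and the TATA box core (TATAAA). Each was found in 1 of 8 windows (*Itgam*, *Cd63* and *Spp1*), against 7.67%, 5.59% and 12.9% of all promoters. These matches describe the letters in the windows only.

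To ask whether RA changed the group, the log2 ratio of RA over vehicle was tested for each probe with limma. Arrays of opposite dye order were averaged into 4 pairs. As the true pairs are not known, each of the 24 ways to form them was fitted, and a probe was given its least favourable p. The standard error (SE) printed with a fold change is limma's value, moderated over all probes, from that same pairing. A probe was called, and is said to have risen or fallen, at an unadjusted p under 0.01. That threshold was passed by 3.25% of all probes. At that threshold 7 of the 9 measured members were higher after RA (*Spp1*, *Cd68*, *Itgam*, *Aif1*, *Itgb2*, *Gpnmb* and *Cd63*), 0 were lower, and *Clec7a* and *Axl* were not called. Among all named genes 3.52% were called higher and 0.792% lower. The median log2 fold change of the 9 members was 0.87, against -0.0047 for all named genes. After Benjamini-Hochberg adjustment over 30367 probes no probe passed 0.05 in limma (0 probes, 3291 at an unadjusted p under 0.05), and the lowest adjusted p was 0.222. The p-values printed below are those adjusted over all probes, so that a gene called at the unadjusted threshold still carries a high adjusted p.

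**Figure D1:**
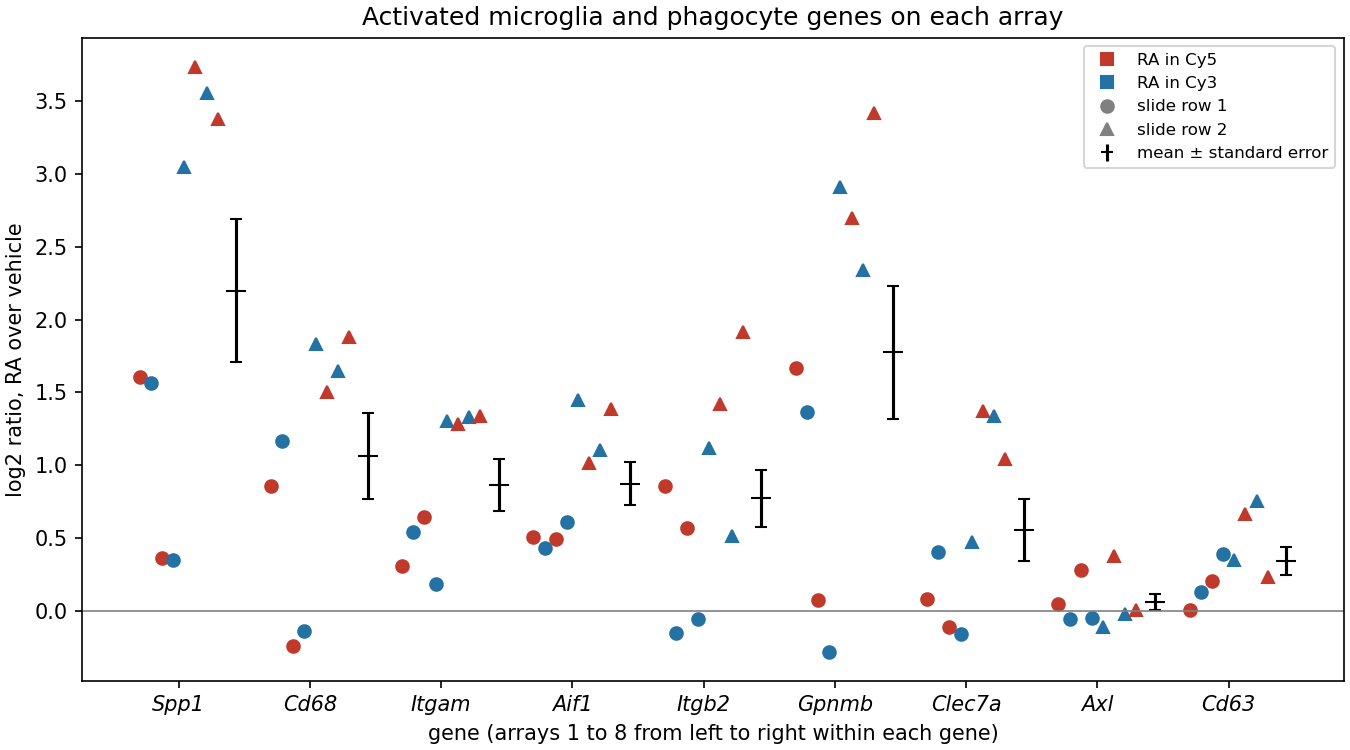
Log2 ratio of RA over vehicle (y axis) for each measured gene (x axis) on arrays 1 to 8 from left to right, coloured by dye order and shaped by slide row, with the mean and standard error in black. The triangles (row 2) sit above the circles (row 1) for *Spp1*, *Cd68*, *Itgam*, *Aif1*, *Gpnmb* and *Clec7a*, and *Axl* stays within -0.11 and 0.38.

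*Spp1* encodes osteopontin, a secreted ligand of integrins and CD44 that phagocytes release. Its log2 ratios were 1.61, 0.36, 3.73 and 3.37 on the arrays with RA in Cy5 (1, 3, 6 and 8), and 1.57, 0.35, 3.04 and 3.55 on those with RA in Cy3 (2, 4, 5 and 7). The ratio was above 0 on all 8 arrays, lowest on arrays 3 and 4 and highest on arrays 5 to 8. The mean log2 fold change was 2.20 ± 0.49 (SE, n = 4 pairs), a 4.59-fold higher level after RA (adjusted p = 0.261 in limma), the fourth highest fold change of the 15159 named genes. The mean log2 intensity was 11.7 with RA and 9.51 with vehicle, and the single arrays overlapped (9.75 to 13.9 with RA, 7.91 to 10.2 with vehicle).

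*Itgam* and *Itgb2* encode the chains CD11b and CD18, which pair to form complement receptor 3 on microglia and other myeloid cells. *Itgam* had log2 ratios of 0.31, 0.64, 1.28 and 1.34 with RA in Cy5 and of 0.55, 0.18, 1.30 and 1.33 with RA in Cy3. It was above 0 on all 8 arrays, and its mean of 0.87 ± 0.18 was a 1.82-fold rise (adjusted p = 0.250 in limma). *Itgb2* gave 0.86, 0.57, 1.42 and 1.92 with RA in Cy5 and -0.15, -0.06, 1.12 and 0.52 with RA in Cy3. Its mean was 0.77 ± 0.20 (1.71-fold, adjusted p = 0.281), with means of 1.19 for RA in Cy5 and 0.36 for RA in Cy3. The dye term of *Itgb2* did not pass (adjusted p = 0.154 in limma, where 3.91% of the named genes passed and 0 of the 9 members did), and with RA in Cy3 alone the rise was not called. The *Itgam* means of the dye orders were 0.89 and 0.84.

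*Clec7a* encodes dectin-1, a pattern receptor for fungal glucans that activated microglia also express. Its ratios were 0.08, -0.11, 1.37 and 1.04 with RA in Cy5 and 0.41, -0.16, 0.47 and 1.34 with RA in Cy3. The mean of 0.56 ± 0.21 did not pass the threshold (adjusted p = 0.406), although 14 of the 24 pairings alone gave a p under 0.01. The probe was well above background in the RA channel on 5 arrays (1, 5, 6, 7 and 8) and in the vehicle channel on 1 (array 7), so that most of its vehicle values lie in the background. The size of its log2 fold change depended on how the background was treated, at 1.59 with plain subtraction and 2.00 with Agilent's own log ratio.

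*Axl* encodes a receptor tyrosine kinase of the TAM family that recognises phosphatidylserine on dying cells through its ligand Gas6. Its ratios were 0.05, 0.28, 0.38 and 0.01 with RA in Cy5 and -0.06, -0.05, -0.11 and -0.02 with RA in Cy3, a mean of 0.06 ± 0.05 (adjusted p = 0.780). The ratio was above 0 on each array with RA in Cy5 and below 0 on each with RA in Cy3, with means of 0.18 and -0.06 (adjusted p = 0.167 for the dye term in limma). A second probe of *Axl* gave 0.03 ± 0.08 (adjusted p = 0.944). *Axl* was well above background on 6 arrays with RA and 5 with vehicle.

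*Cd68*, *Cd63* and *Gpnmb* encode membrane glycoproteins of lysosomes and related compartments. *Gpnmb*, which is found on lipid-laden and phagocytosing macrophages, gave 1.67, 0.08, 2.70 and 3.42 with RA in Cy5 and 1.37, -0.28, 2.91 and 2.34 with RA in Cy3. The mean of 1.77 ± 0.46 was a 3.42-fold rise (adjusted p = 0.283 in limma), and arrays 3 and 4 stayed near 0. *Cd68*, a macrophage sialomucin used as a stain for phagocytic activity, gave 0.86, -0.24, 1.51 and 1.88 with RA in Cy5 and 1.17, -0.14, 1.83 and 1.65 with RA in Cy3. Its mean was 1.07 ± 0.29 (2.09-fold, adjusted p = 0.297), and the ratio was below 0 on arrays 3 and 4, as it was for *Clec7a*. *Cd63*, a tetraspanin of late endosomes that most cells express, gave 0.01, 0.21, 0.66 and 0.23 with RA in Cy5 and 0.13, 0.39, 0.35 and 0.76 with RA in Cy3. It was the smallest of the called rises at 0.34 ± 0.10 (1.27-fold, adjusted p = 0.297), although all 8 ratios were above 0.

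*Aif1* encodes Iba1, a calcium- and actin-binding protein of the cytoplasm that marks microglia and macrophages in general. Its ratios were 0.51, 0.49, 1.01 and 1.39 with RA in Cy5 and 0.44, 0.61, 1.45 and 1.10 with RA in Cy3, a mean of 0.88 ± 0.15 and a 1.83-fold rise (adjusted p = 0.222 in limma). This was the lowest adjusted p of the group. A second *Aif1* probe gave 0.87 ± 0.16 (adjusted p = 0.227).

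**Figure D2:**
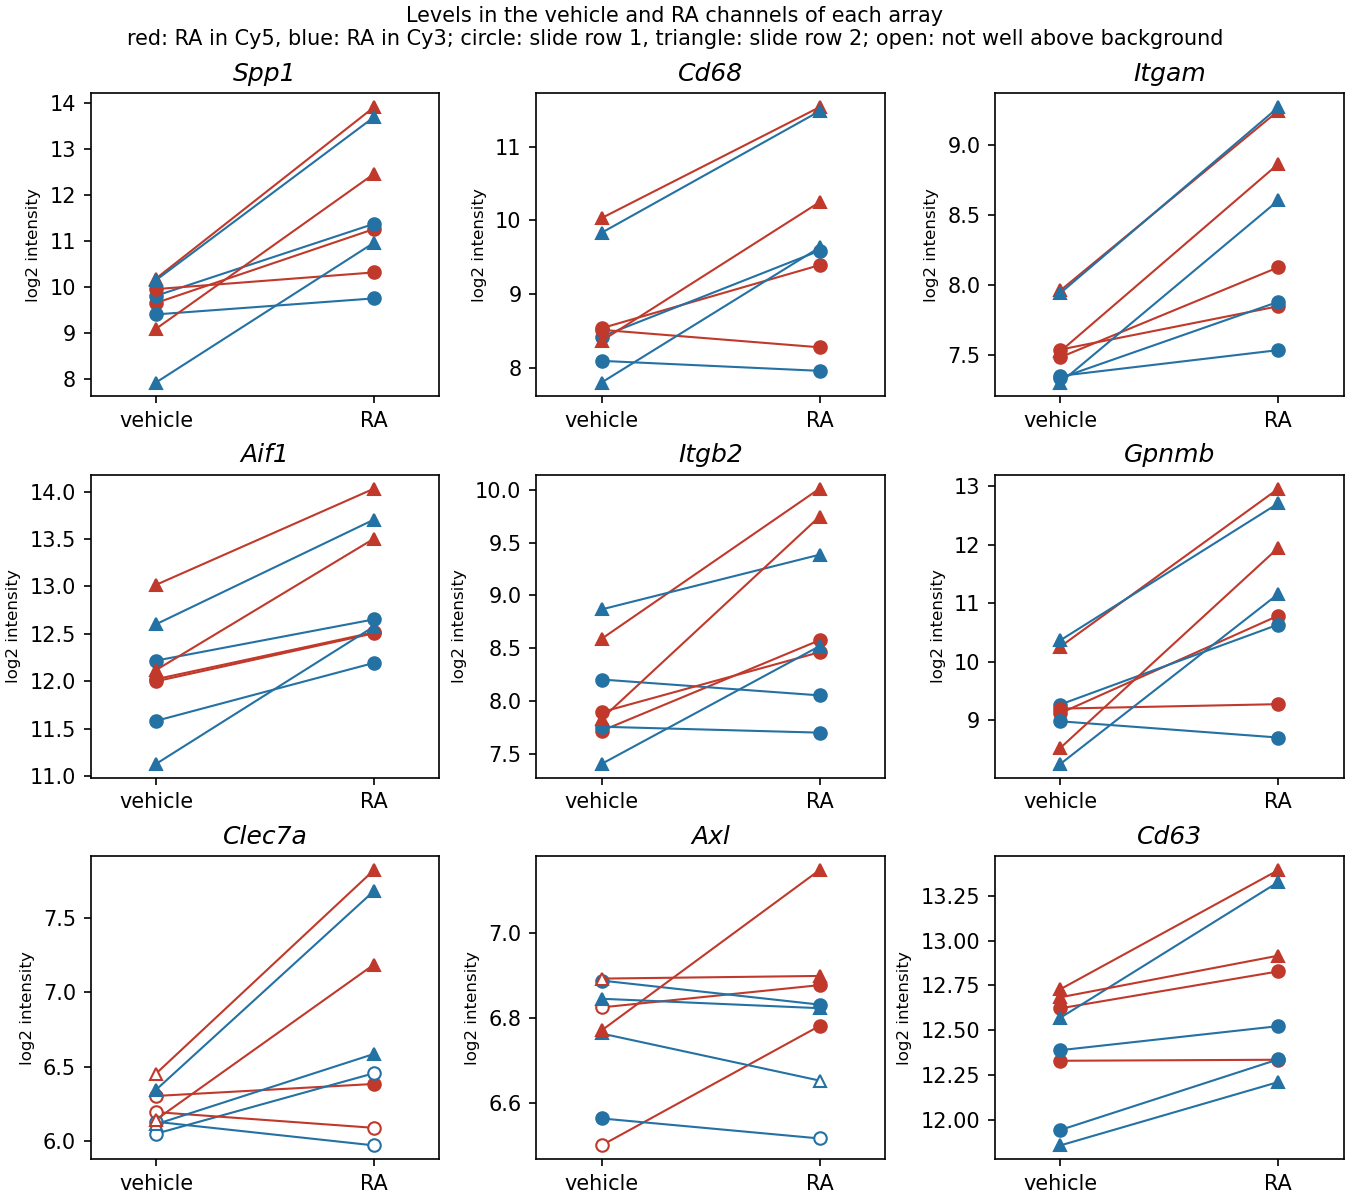
Log2 intensity (y axis, a separate scale for each gene) in the vehicle and RA channels (x axis), with a line for each array and open symbols where the probe was not well above background. Lines run upward on all 8 arrays for *Spp1*, *Itgam*, *Aif1* and *Cd63*, and *Clec7a* is mostly open in the vehicle channel.

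All 9 members had a mean log2 fold change above 0, as did 47.6% of the named genes. *Spp1*, *Itgam*, *Aif1* and *Cd63*, 4 of the 9 members, were above 0 on all 8 arrays, as were 4.07% of the named genes. The levels with RA and with vehicle overlapped across arrays for every member, so each rise was one within arrays. By fold change *Gpnmb* ranked 12, *Cd68* 69, *Itgam* 110, *Itgb2* 141, *Clec7a* 259, *Cd63* 503 and *Axl* 3326 among the named genes, and *Aif1* lay just above *Itgam*. With 4 pairs a two-sided exact sign-flip permutation test of a single gene cannot give a p under 0.125. The exact p was 0.125 in every pairing for *Spp1*, *Itgam*, *Aif1*, *Itgb2* and *Cd63*, between 0.125 and 0.25 over the pairings for *Cd68*, *Gpnmb* and *Clec7a*, and between 0.375 and 0.5 for *Axl*.

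**Figure D3:**
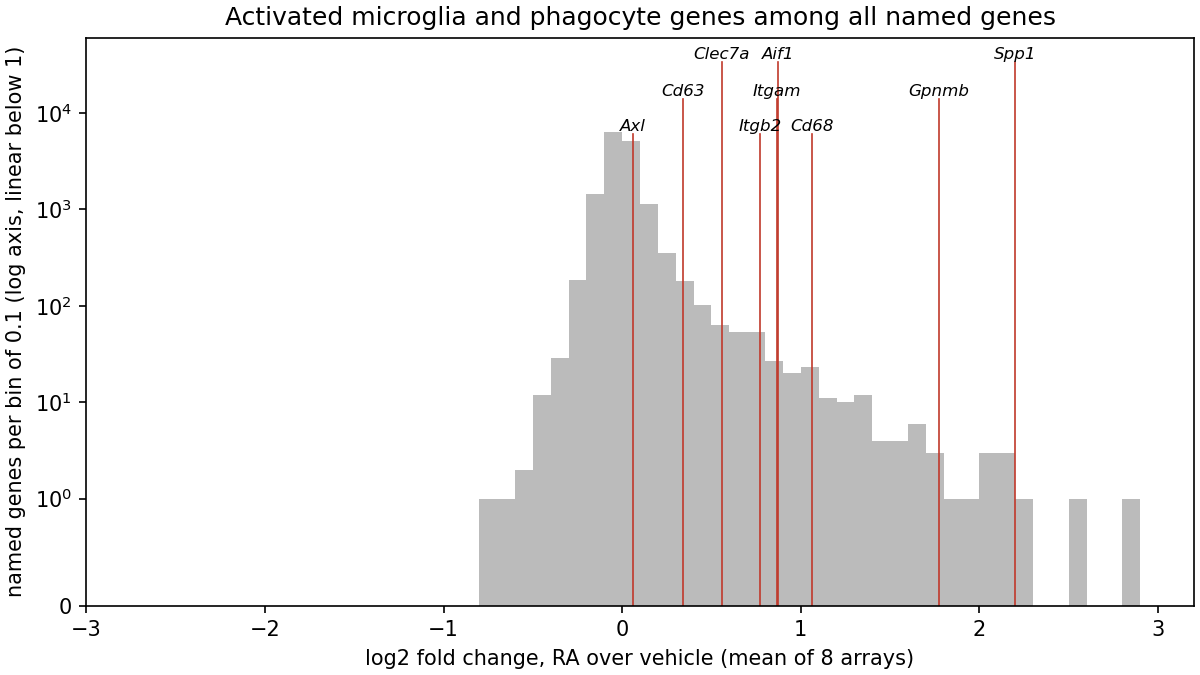
Number of named genes (y axis, log scale, linear below 1) by mean log2 fold change of RA over vehicle (x axis, bins of 0.1), with a red line at each measured member. *Spp1* at 2.20 and *Gpnmb* at 1.77 lie in the upper tail, and *Axl* at 0.06 lies in the bulk of the genes.

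The ratios of 5 members (*Spp1*, *Gpnmb*, *Itgam*, *Aif1* and *Itgb2*) differed between the rows of the slide. The median of the members was 0.51, 0.44, 0.28 and -0.05 on arrays 1 to 4, and 1.30, 1.37, 1.33 and 1.39 on arrays 5 to 8. *Spp1* had a mean log2 ratio of 0.97 in row 1 (1.96-fold) and of 3.43 in row 2, with an adjusted p of 0.00284 for the row term in limma over 8 arrays taken as independent. *Gpnmb* had 0.71 and 2.84 (1.63-fold and 7.17-fold, adjusted p = 0.0235), and *Itgam* had 0.42 and 1.31 (adjusted p = 0.00220). The row term also passed for *Aif1* (0.51 and 1.24, adjusted p = 0.00841) and *Itgb2* (0.31 and 1.24, adjusted p = 0.0110). *Clec7a* had 0.06 and 1.06, and its row term passed as well (adjusted p = 0.0340). However, *Clec7a* was above background in row 1 on a single array with RA and on none with vehicle, so no row difference is read from it. The row term did not pass for *Cd68* (0.41 and 1.72, adjusted p = 0.0526) or *Cd63* (0.18 and 0.50, adjusted p = 0.309). *Axl* had a mean of 0.06 in each row. Of all named genes, 2.25% had a higher ratio in row 2 by this term at an adjusted p under 0.05. Arrays that share RNA are counted as independent in it, so its p-values are too small.

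In row 1 alone, with arrays paired within the row, 4 members were called (*Spp1*, *Itgam*, *Aif1* and *Itgb2*), against 2.4% of the named genes in the higher direction. In row 2 alone 8 were called, *Axl* being the exception, against 5.57%. Each row gave 2 pair means. The SD of the log2 ratios over all named genes was also wider in row 2 (0.29 to 0.33) than in row 1 (0.18 to 0.20). The rows held RNA of different rats if dye-swapped arrays lay in the same row, which the sources used here do not say, and slide row and rats cannot be told apart.

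The calls of *Spp1*, *Cd68*, *Itgb2*, *Gpnmb* and *Cd63* depended on single pairs of arrays. Without arrays 5 and 8, 3 members were called (*Itgam*, *Aif1* and *Itgb2*), and without arrays 6 and 7, 3 were called (*Spp1*, *Itgam* and *Aif1*). The count was also 3 without arrays 5 and 6 and without arrays 7 and 8, and 4 without arrays 1 and 7. Over all 16 pairs of arrays left out, *Itgam* and *Aif1* passed each time, *Spp1* 15 times, *Itgb2* 12 times, *Gpnmb* and *Cd68* 7 times each and *Cd63* 6 times. Their log2 fold changes stayed above 0 throughout, from 1.72 to 2.81 for *Spp1*, from 1.31 to 2.40 for *Gpnmb*, from 0.80 to 1.48 for *Cd68* and from 0.22 to 0.43 for *Cd63*. With arrays 1 and 2, 3 and 4, 5 and 8, and 6 and 7 assumed to be pairs and taken as a random block with a dye term, 5 members passed an adjusted p of 0.05 in limma, as did 1.89% of the named genes in the higher direction. They were *Spp1* (0.0257), *Itgam* (0.0240), *Aif1* (0.0111), *Itgb2* (0.0441) and *Gpnmb* (0.0443), whereas *Cd68* had 0.0578 and *Cd63* 0.0690. The sources used here do not give these pairs. A single correlation within pairs, 0.417, was used for all probes in that fit. Where arrays of a pair agree more closely than that, its p-values are too small. The SE of *Spp1* was 0.39 in it, against 0.40 with 8 arrays taken as independent and 0.49 over 4 pairs.

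The number of calls also moved with the processing, and the cause was not tested. Without background correction 6 members were called, *Cd68* being lost. With plain background subtraction 1 (*Aif1*) was called and with Agilent's own log ratio 0, although the log2 fold changes were as large or larger. With plain subtraction they were 2.33 for *Spp1*, 1.90 for *Gpnmb*, 1.20 for *Itgam* and 0.99 for *Itgb2*. With a variance trend in limma 2 were called (*Itgam* and *Aif1*).

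**Figure D4:**
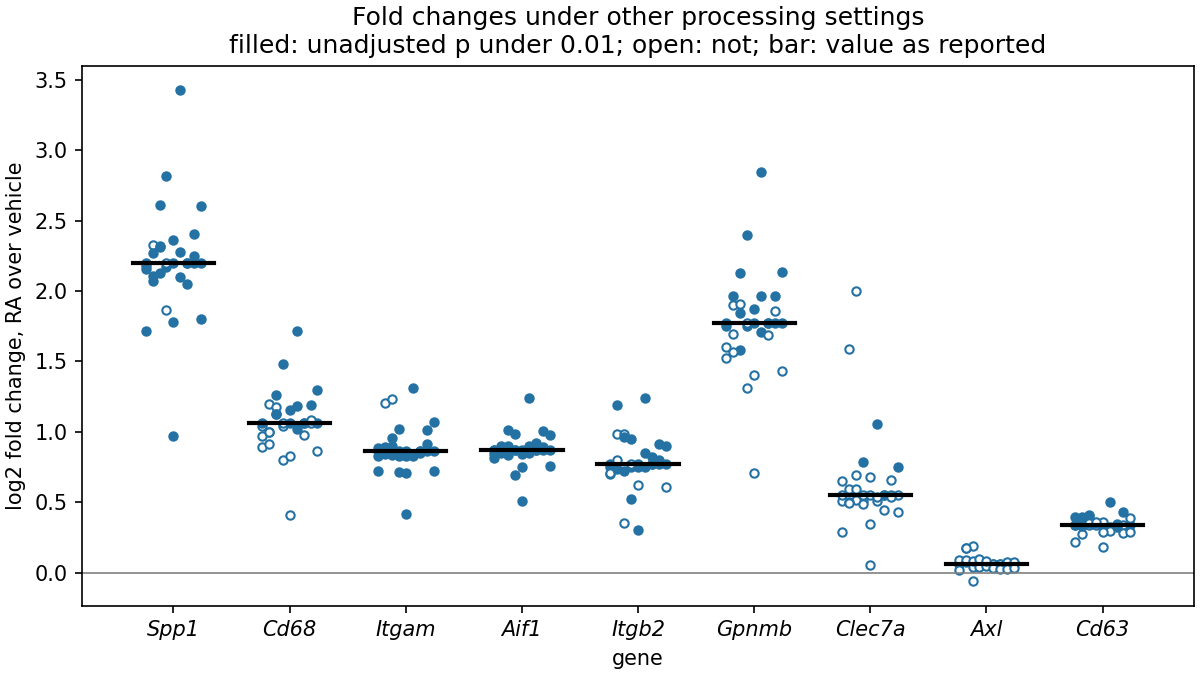
Log2 fold change of RA over vehicle (y axis) for each member (x axis) under each alternative processing, filled where the unadjusted p was under 0.01, with a bar at the value as reported. All points lie above 0 except 1 of *Axl*, and most points of *Aif1* and *Itgam* are filled.

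The members did not share one profile over the arrays. The Pearson correlation of a member's 8 log2 ratios with the mean of the other members was 0.976 for *Spp1*, 0.940 for *Gpnmb*, 0.913 for *Itgam*, 0.903 for *Cd68*, 0.874 for *Clec7a*, 0.835 for *Aif1* and 0.714 for *Itgb2*. It was 0.446 for *Cd63* and 0.00830 for *Axl*. These values describe arrays that share RNA in an unknown way, and no test was made. Of 9455 other genes well above background in both channels on all arrays, the 5 most similar to the members' mean profile were *Clec12a* (r = 0.997), *Ctsc* (0.995), *Slfn2* (0.989), *Sigirr* (0.987) and *Cd53* (0.984). *Clec12a*, an inhibitory lectin receptor of myeloid cells, was higher after RA by 1.07 ± 0.20 (adjusted p = 0.227), and *Ctsc*, the lysosomal protease cathepsin C, by 0.91 ± 0.21 (adjusted p = 0.268). *Slfn2* (0.55, adjusted p = 0.369), *Sigirr* (0.22, adjusted p = 0.430) and *Cd53* (0.73, adjusted p = 0.326) were not called.

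Markers of homeostatic microglia lay near 0 on balance. Of 11 listed genes 10 had a probe, 0 were called higher and 1 was called lower, and their median log2 fold change was -0.06. *Tmem119*, a membrane protein that marks resident microglia, fell by 0.52 on the log2 scale (SE 0.11, adjusted p = 0.257) and was below 0 on all 8 arrays. By fold change it ranked 15157 of the 15159 named genes. *Csf1r*, the receptor for the microglial growth factor CSF1, had 0.37 (adjusted p = 0.379), *Slc2a5*, a hexose transporter, 0.17 (adjusted p = 0.443), and *P2ry12*, a nucleotide receptor of resting microglia, -0.15 (adjusted p = 0.742). None of these last genes was called. The list's median lay between -0.16 and 0.09 on the single arrays, with no step between the rows in the median. *Csf1r* alone of the list passed the row term, with mean log2 ratios of 0.05 in row 1 and 0.69 in row 2. Its adjusted p was 0.00840 in limma over 8 arrays taken as independent.

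Other genes of the phagocyte response were called higher for 6 of 17 and lower for 0, against 3.52% and 0.792% of all named genes. *Lgals3*, a galectin that coats damaged lysosomes and is secreted, rose by 1.83 ± 0.25 (adjusted p = 0.222), and *Ctsz*, the lysosomal protease cathepsin Z, by 1.34 ± 0.25 (adjusted p = 0.227). Of a signalling pair of the microglial surface, the adaptor *Tyrobp* rose by 1.08 (adjusted p = 0.222), while its receptor *Trem2* had -0.34 ± 0.23 (adjusted p = 0.677). *Tyrobp* lies outside the rule for naming genes and was chosen after its values were seen. *Igf1* (-0.05), *Cd9* (0.06), *Apoe* (-0.03) and *Lpl* (-0.03) of the same list were not called. *Apoe* and *Lpl* were also chosen after their values were seen. The list's median was 0.21, and 12 of 17 means were above 0.

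The partners of the members were examined by their roles. Of 7 osteopontin receptors 5 had a probe, and only *Cd44*, a hyaluronan and osteopontin receptor, was called higher (0.84 ± 0.17, adjusted p = 0.242). Among the partners and ligands of beta2 integrins 3 of 6 were called higher. They were *Icam1*, an adhesion ligand (0.65, adjusted p = 0.227), *C3*, the complement protein whose fragment iC3b binds complement receptor 3 (0.65, adjusted p = 0.227), and *Fermt3*, an integrin activator of blood cells (0.52, adjusted p = 0.267). The ligand *Icam2* was not called (0.12, adjusted p = 0.518). Of 5 measured genes of dectin-1 signalling 2 were called higher, the adaptor *Card9* (0.36, adjusted p = 0.257) and the phospholipase *Plcg2* (0.26, adjusted p = 0.268). In the TAM family 0 of 4 were called, with *Mertk* at 0.07 (adjusted p = 0.835), *Tyro3* at -0.06 (adjusted p = 0.786) and the ligand *Gas6* at -0.07 (adjusted p = 0.685). The direction of *Mertk* turned on the arrays with RA in Cy5 (-0.02) and in row 1 (-0.09). Of 6 further tetraspanins 0 were called, with a median of 0.08.

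**Figure D5:**
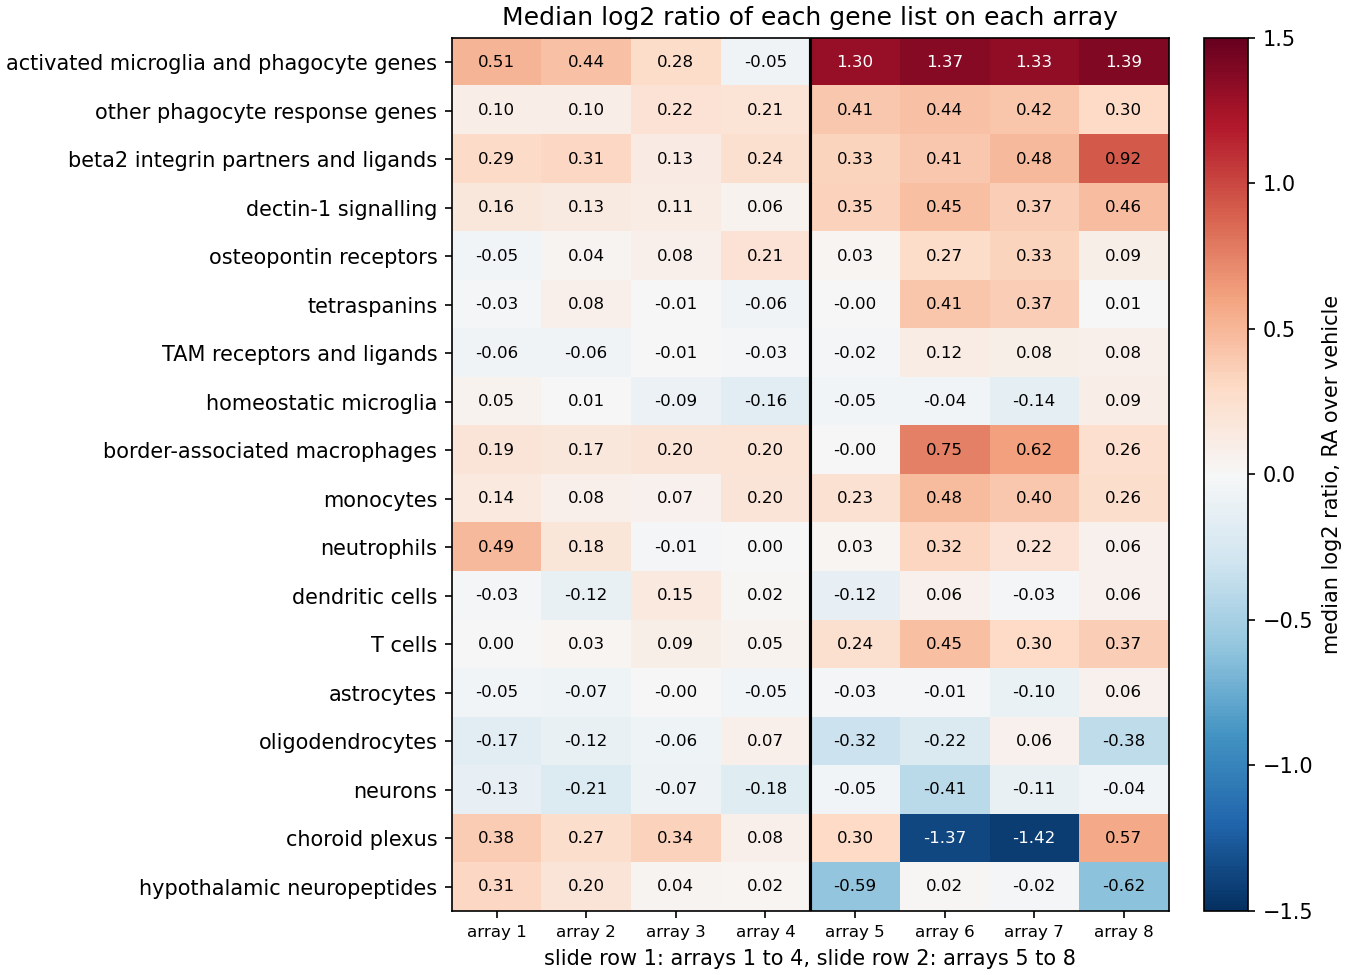
Median log2 ratio of RA over vehicle (colour and printed value) for each gene list (rows) on each array (columns), with a line between the slide rows. The members reach 1.30 to 1.39 on arrays 5 to 8, homeostatic microglia stay between -0.16 and 0.09, and choroid plexus lies at -1.37 and -1.42 on arrays 6 and 7.

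Some markers of other phagocytes were called higher after RA. The summed linear intensity of each list is given with its range over the 8 arrays. For the 9 members it was 11934 to 55834 with RA and 7224 to 19337 with vehicle. Of border-associated macrophage markers 4 of 7 measured were called higher and all 7 were above 0 in their mean (RA 1232 to 3691, vehicle 1035 to 1758). They were *Folr2*, a folate receptor (0.71, adjusted p = 0.268), the lectin *Clec10a* (0.50, adjusted p = 0.222), the hyaluronan receptor *Lyve1* (0.34, adjusted p = 0.283) and the sialic acid receptor *Siglec1* (0.68, adjusted p = 0.297). *Siglec1* was chosen after its values were seen, and it was well above background on only 6 arrays with RA and 3 with vehicle. *Pf4* was not called (0.25, adjusted p = 0.744). The median log2 ratio of this list was 0.75 and 0.62 on arrays 6 and 7. On arrays 5 and 8 it was -0.0021 and 0.26, where the members' median was 1.30 and 1.39. Of monocyte markers 3 of 7 were called higher (RA 3264 to 15797, vehicle 2524 to 4791). They were *Plac8* (2.03, adjusted p = 0.222), the calcium-binding protein *S100a4* (0.85, adjusted p = 0.250) and fibronectin, *Fn1* (0.50, adjusted p = 0.306). *Fn1* was also chosen after its values were seen. *Vcan* (0.10, adjusted p = 0.698) and *F13a1* (0.07, adjusted p = 0.763) were not called.

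Of neutrophil markers 2 of 7 were called higher, *S100a9* (1.25, adjusted p = 0.299), a subunit of calprotectin, and *Csf3r* (0.42, adjusted p = 0.283), the G-CSF receptor. *S100a8* (0.94) and *Camp* (0.05) were not called. The granule genes *Elane*, *Ltf* and *Mmp8* were well above background on no array, and the summed level was 677 to 2530 with RA and 620 to 820 with vehicle. Of T cell markers 0 of 6 were called (median 0.18, all 6 above 0, RA 651 to 1345, vehicle 585 to 908). Only 1 of these 6 was well above background on all 8 arrays in the RA or the vehicle channel. Of dendritic cell markers 0 of 5 were called (median 0.0062, RA 2572 to 4598, vehicle 3002 to 4934). Again only 1 was well above background on all 8 arrays in either channel, and *Xcr1* was so on no array. The part of these cells in the members' rise was not tested.

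Of the other cell types, astrocytes had 1 of 6 markers higher, the filament gene *Gfap* (1.40, adjusted p = 0.222), and 1 lower, the gap junction gene *Gja1* (-0.22, adjusted p = 0.290). Neurons had 1 of 5 lower (*Nefl*, -0.30, adjusted p = 0.306), and 0 of 6 oligodendrocyte and 0 of 8 choroid plexus markers were called. Means above 0 were found for 0 of 6 oligodendrocyte (median -0.19), 0 of 8 choroid plexus (-0.13) and 1 of 5 neuronal markers (-0.14). All 12 hypothalamic neuropeptide genes with a probe were detected above background in at least one channel of every array. Of these only *Cartpt* was called (-0.42, adjusted p = 0.254). Their detection is no check of the tissue's origin, as 57.4% to 74.6% of all probes were well above background with RA on single arrays. The choroid plexus list stood apart on arrays 6 and 7, with medians of -1.37 and -1.42 against 0.08 to 0.57 on the others. The members' median on those arrays (1.37 and 1.33) was close to that on arrays 5 and 8 (1.30 and 1.39), where the choroid plexus list had 0.30 and 0.57. On arrays 5 and 8 the hypothalamic neuropeptide list was low, with medians of -0.59 and -0.62 (-0.02 to 0.31 on the others). The oligodendrocyte list was also lowest there (-0.32 and -0.38). How far tissue composition bears on the members' ratios was not tested.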

How the data were processed

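The authors deposited the scanner output of Agilent Feature Extraction 10.7.3.1 for each array, with a linear median intensity of every spot and its local background in Cy3 and Cy5. They deposited Agilent's own log10 ratio of both dyes in the same files. A series-wide log2 table, deposited by the authors, holds ratios that the methods describe as loess-normalised with identical probes averaged. Its columns run from RA over vehicle and correlated best with loess without background correction. Authors' pathway results were not used.

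Here, in R 4.3.3 with limma 3.58.1, spot medians were corrected by normexp (offset 50), loess was applied within arrays, and control and outlier spots were left out. Of 30367 probes, 18006 matched a RefSeq gene of GRCr8 by transcript accession. A probe was well above background where at least 0.5 of its spots carried Agilent's mark. Between 57.4% and 74.6% of probes were so with RA and between 61.2% and 74.5% with vehicle. Precision is limited by the number of rats, 4 per group, as each RNA was measured in both dyes. The call at an unadjusted p under 0.01 follows the methods. Of all probes 988 were called, 792 higher and 196 lower, and with Agilent's log ratio 168 were higher and 162 lower.

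The members and lists were chosen with earlier results of these data known. Besides the members, the text names genes from among the 2 highest and 2 lowest of each list, partners of members and the 5 most similar genes. Not all of the highest and lowest are named, and those left out were not called. *Tyrobp*, *Siglec1*, *Fn1*, *Apoe* and *Lpl* were named outside this rule. The fit was tested on simulated data. The alternatives were other background corrections and scalings, the deposited values, a brightness filter, outlier spots kept, block, dye, variance-trend and slide-row fits, single dye orders and slide rows, and 16 pairs of arrays left out.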

Additional observations from a re-analysis of the deposited data

Results flagged for a closer look

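In each dye order the 4 arrays were searched for a value far from the other 3, over 27 measures (9 members, their median and the medians of 17 gene lists) and so 54 groups, of which chance gives about 1 in 20. The search found 4, and no member was among them. On array 6, among arrays with RA in Cy5, the median log2 ratio was 0.41 for tetraspanins (-0.03 to 0.0065 on the others), 0.75 for border-associated macrophage markers (0.19 to 0.26) and -1.37 for choroid plexus markers (0.34 to 0.57). On array 7, among arrays with RA in Cy3, it was -1.42 for choroid plexus markers (0.08 to 0.30). The members' median was 1.37 on array 6 and 1.33 on array 7, against 1.39 and 1.30 on arrays 8 and 5. On arrays 8 and 5 the median of hypothalamic neuropeptides was -0.62 and -0.59. Without arrays 6 and 7 the members' log2 fold changes were 1.72 for *Spp1*, 1.53 for *Gpnmb*, 0.89 for *Cd68*, 0.72 for *Itgam*, 0.81 for *Aif1*, 0.71 for *Itgb2*, 0.29 for *Clec7a*, 0.02 for *Axl* and 0.22 for *Cd63*.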

How the results depend on the processing

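The median log2 fold change of the members kept its direction under all 33 alternatives (0.41 to 1.24, and 0.69 to 1.01 with pairs of arrays left out). The count of members called, 7, fell to 1 (*Aif1*) with plain background subtraction, 0 with Agilent's log ratio (6 at an unadjusted p under 0.05 in limma), 2 with a variance trend and 4 in slide row 1 alone, and ranged from 3 to 7 with pairs of arrays left out. The cause was not tested. With the deposited values 5 members were called.

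The count of all probes called, 988, became 237 with plain subtraction, 330 with Agilent's log ratio, 551 with a variance trend, 1621 with pairs as a random block, 2481 with independent arrays, 2161 with RA in Cy5 alone, 2317 with RA in Cy3 alone and 3111 with slide row as a block, and 455 to 1111 with pairs of arrays left out. *Axl* turned to -0.059 with RA in Cy3 alone. *Mertk* turned to -0.016 with RA in Cy5 alone and to -0.088 in slide row 1, and ranged from -0.0043 to 0.15 with arrays left out, where *P2ry12* ranged from -0.23 to 0.015. No paired analysis by replicate number was possible because the arrays are numbered once each and no number is shared between dye orders. *Clec7a* was well above background with vehicle on 1 array, and its log2 fold change was 0.56, 1.59 with plain subtraction and 2.00 with Agilent's log ratio.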
